A study of Mus musculus with 8 samples.

Results

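Klf10 and Txnip are 2 genes whose transcription is known to follow nutrient supply, and the acetylation of their surroundings was described in small intestinal crypts of fed and fasted mice. The mark was H3K27ac, histone H3 acetylated at lysine 27, which sits at active promoters and enhancers, measured by chromatin immunoprecipitation with sequencing. The rule took every deposited peak that overlapped a fixed window around each gene in the mouse build mm9. The Klf10 window was chromosome 15 from 38205000 to 38255000 (50 kb) and the Txnip window chromosome 3 from 96335000 to 96390000 (55 kb). It found 34 peaks among the 117035 in the 4 deposited lists, 11 of them in the Klf10 window and 23 in the Txnip window. The windows were selected on gene name and position, with peak numbers, covered lengths and score percentiles of these same lists already in view, so their values are given as a description, with no test.

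Per the labels, mice aged 6 to 12 weeks, male and female, either had free access to food or were kept without food for 24 h, with water in both groups. The strains named in the labels are Lgr5EGFP-IRES-CreERT2/+, which carries a reporter and an inducible recombinase at the stem cell gene Lgr5, and C57BL/6J; which animals entered which pool is not stated there. Crypts of 4 animals were pooled for each library, and the solutions used for isolation held 100 nM trichostatin A, an inhibitor of histone deacetylases, in both groups. The fed libraries are called fed 1 and fed 4 and the fasted libraries fasted 2 and fasted 5, after the replicate numbers of their labels; 4 input libraries were not analysed here. Each library is a separate pool of whole crypts, so a shift in the mix of crypt cells and a shift within the cells cannot be told apart.

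Txnip encodes thioredoxin-interacting protein, an arrestin-fold protein that binds thioredoxin and restrains the uptake of glucose by removing glucose transporters from the cell surface. Its transcription is known to rise with glucose through the paired factors MondoA or ChREBP with Mlx, which bind a carbohydrate response element, and it is also known as a gene that inhibitors of histone deacetylases induce. Klf10, also called Tieg1, encodes a zinc finger transcription factor of the Krüppel-like family, first known as an early target of TGF-beta signalling and later as a glucose- and clock-controlled regulator of metabolic genes in the liver.

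The Txnip promoter is shown because it holds letters laid out like the element through which the gene is known to sense sugar. RefSeq's table holds a promoter for 1 of the 2 genes, Txnip. The stretch is the 250 bases before the start site, on the plus strand of chr3:96557707-96557956 in GRCm38.p6, which is a different build from that of the peaks. Capitals mark, from left to right, the ATTGG box, the forkhead core GTAAACA, the CCAAT box and the pair of CACNNG motifs, 5 bases apart, that have the layout of a carbohydrate response element.
Txnip promoter: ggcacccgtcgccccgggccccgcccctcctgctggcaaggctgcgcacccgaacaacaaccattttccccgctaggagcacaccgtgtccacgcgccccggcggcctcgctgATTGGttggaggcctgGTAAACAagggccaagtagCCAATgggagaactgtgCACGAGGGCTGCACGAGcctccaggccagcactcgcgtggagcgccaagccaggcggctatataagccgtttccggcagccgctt

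Counted back from the start site, the CACNNG pair spans positions -85 to -69 and the forkhead core -121 to -115. The ATTGG box lies at -137 to -133 and its reverse CCAAT at -102 to -98. A search of both strands of 32851 RefSeq promoters of the same length found the CACNNG pair in 0.91%, GTAAACA in 3.17%, and ATTGG or CCAAT in 33.8%. The E box CACGTG was in 6.02% of promoters and not in these 250 bases, and the GC box GGGCGG was in 32.7% and in this one on the minus strand, at -230 to -225. The CACNNG pair overlaps no other match. These are matches of letters in the reference sequence and say nothing of binding in these crypts.

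No gene models of build mm9 were used, so peaks could not be assigned to a promoter, exon or intron, and the tissue label could not be checked against marker genes. In RefSeq's gene order for GRCm38.p6, Klf10 overlaps the noncoding RNA Gm35248 and lies between the protein-coding genes Odf1 and Azin1. Txnip overlaps the noncoding RNA Gm15441 and lies between Hjv, which encodes the iron regulator hemojuvelin, and Polr3gl, which encodes a subunit of RNA polymerase III, followed by Ankrd34a. A peak inside a window may therefore belong to a neighbour.

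The lists themselves differed. They held 15504 to 27640 peaks in the fed and 35917 to 37974 in the fasted libraries, and the fasted peaks covered on average 2.95 times as many bases (104.1 against 35.3 Mb). The files hold no read counts, so depth is unknown. Each peak has a score set by the authors on a scale the files do not name. Scores were ranked within their own list only, as the percentile of peaks with that score or a lower one. In fasted 5, 1282 peaks share a score of 3100 and stand together at percentile 99.6, or 96.0 by the lower edge of the tie.

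The Klf10 window held a block of acetylation near its start in all 4 libraries and a second, separate block in the fasted libraries alone. Peaks covered 7321 and 5067 bp of the window in fed 1 and fed 4, against 17010 and 16110 bp in fasted 2 and fasted 5. The fasted libraries lay close together and both above the fed ones. The means were 6194.0 ± 1593.8 bp in fed and 16560.0 ± 636.4 bp in fasted crypts (SD, n = 2), a ratio of 2.67. The same order of the groups was found in 79.1% of all 50 kb windows with a peak in any library and in 94.5% of the 5660 windows with a peak in all 4, so the order alone is the common one in these lists.

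**Figure D1:**
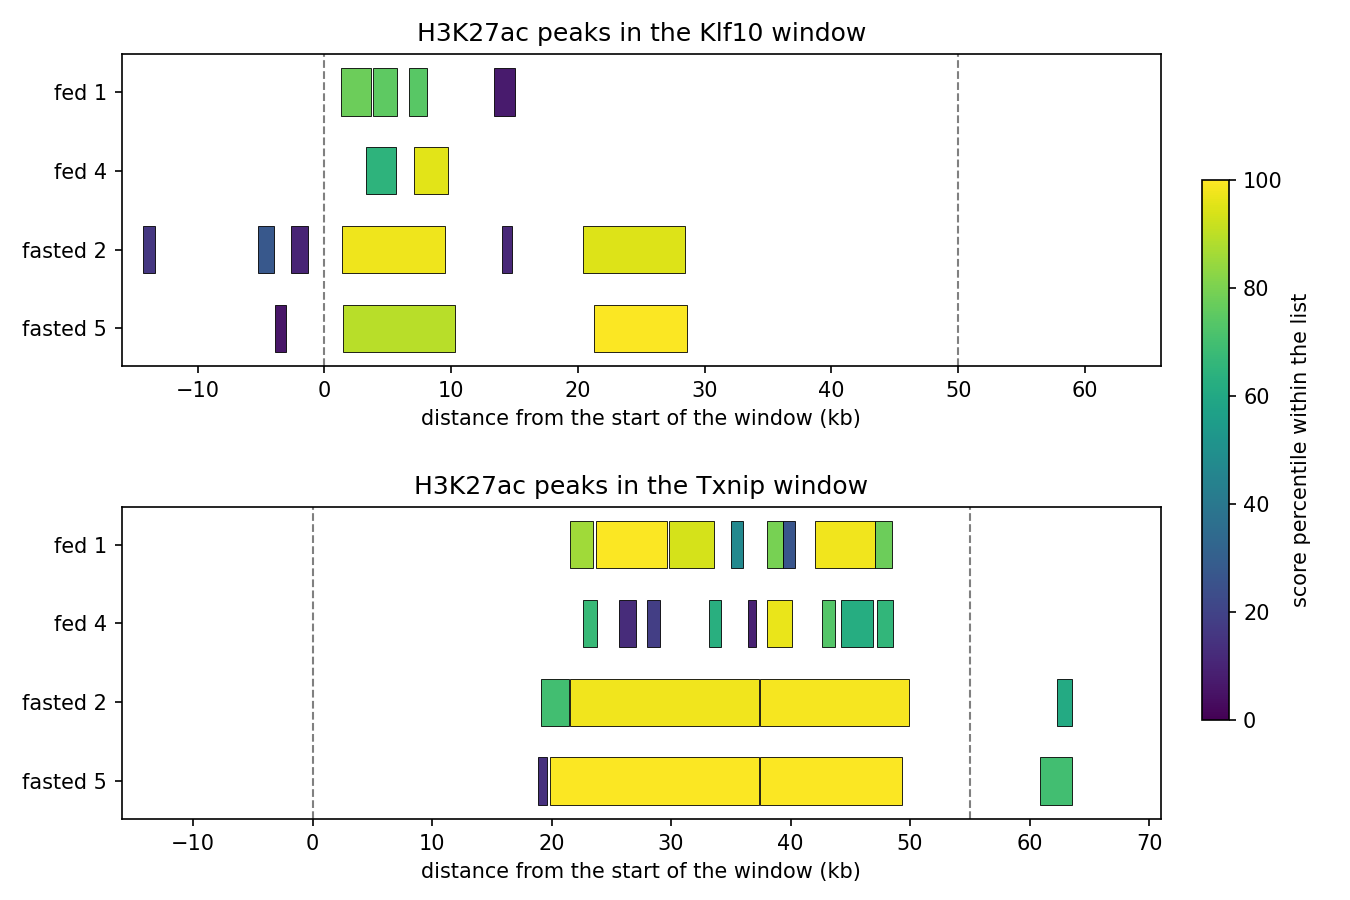
Position of each H3K27ac peak in the Klf10 window (top) and the Txnip window (bottom), in kb from the start of the window, with 1 row per library. Bars are peaks drawn to scale, colour is the score percentile within the library's own list, and dashed lines are the window edges; the second Klf10 block, at 20.4 to 28.6 kb, has bars in the fasted rows alone.

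The first Klf10 block ran from 38206291 to 38215312, 9022 bp in all. Fed 1 had 3 peaks there that covered 5717 bp, and fed 4 had 2 peaks that covered 5067 bp. Fasted 2 had a single peak of 8136 bp and fasted 5 a single peak of 8825 bp. Thus the fed libraries left gaps inside a stretch that the fasted libraries covered as 1 peak. The gaps of fed 1 were 114 and 953 bp long and that of fed 4 was 1399 bp long.

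Within their lists the peaks of this first block did not separate the groups. The highest percentile was 77.7 and 95.7 in fed 1 and fed 4, and 97.4 and 89.4 in fasted 2 and fasted 5. Fed 4 thus ranked this block higher than fasted 5 did. The top fed 4 peak, at 38212086 to 38214780, lay at the far end of the block, while the top fed 1 peak, at 38206291 to 38208677, lay at the near end. These 2 peaks do not overlap.

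The second Klf10 block, from 38225351 to 38233562, had no fed peak. Fasted 2 had a peak of 8056 bp there at percentile 94.8, and fasted 5 a peak of 7285 bp at the tied score of 3100. The fasted peaks began 927 bp apart and ended 156 bp apart. Peaks of both fasted libraries with none of a fed library were found at 19.3% of the 43091 regions made by merging overlapping peaks of the 4 lists. By width the Klf10 block was the 37th of these 8319 regions, whose median was 2248 bp. No fed peak means only that the authors' threshold was not reached in either fed list, whose depth is unknown.

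This second block held 47.4% of the bases covered in the Klf10 window in fasted 2 and 45.2% in fasted 5. Without it the window had 7321 and 5067 bp in the fed libraries and 8954 and 8825 bp in the fasted ones. Both fasted values were then above both fed values, which is the order of 94.5% of whole 50 kb windows with a peak in all 4 libraries. The ratio of the means was 1.44 instead of 2.67 (6194.0 ± 1593.8 against 8889.5 ± 91.2 bp, SD, n = 2).

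Between the blocks lay a minor peak, from 38218443 to 38220046, in fed 1 (1604 bp, percentile 7.1) and fasted 2 (818 bp, percentile 11). Fed 4 and fasted 5 had none there. A peak in fed 1 and fasted 2 alone was found at 1.91% of the merged regions. Both peaks scored near the minimum of about 50 in every list, and the site did not follow feeding state.

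Because the second block reached the tie in fasted 5, the highest percentile of the Klf10 window was greater in both fasted libraries (97.4 and 99.6) than in both fed libraries (77.7 and 95.7). This order held in 52.7% of the 50 kb windows with a peak in all 4 libraries. The difference of the means was 11.8 points; it was 2.8 without fed 1 and 20.9 without fed 4, so its size rests on which fed library is kept. By the lower edge of the tie fasted 5 stood at 96.0, just above fed 4 at 95.7. The order ended in lists made equal. With equal peak number fed 4 (95.7) stood above fasted 2 (93.7), and with equal covered length fed 4 (95.7) stood above both fasted 2 (65.7) and fasted 5 (94.6). Fed 1 and fed 4 had 4 and 2 peaks in the window and fasted 2 and fasted 5 had 3 and 2, so the groups overlapped.

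Beyond the second block no peak followed for a long distance. The last peak inside the window was 81313 bp (fed 1), 91832 bp (fed 4), 69325 bp (fasted 2) and 69291 bp (fasted 5) from the next. The fed distances start before the second block, where the last fed peaks end (38220046 in fed 1 and 38214780 in fed 4). The next peaks began at 38301360 to 38306613 in the 4 libraries. On the near side the fed libraries had no peak for 197823 bp (fed 1) and 200005 bp (fed 4). The fasted libraries had low-ranking peaks just outside the window there, 2742 bp from the first inside peak at percentile 10.0 in fasted 2 and 4532 bp from it at percentile 5.5 in fasted 5.

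The Txnip window held a long stretch that fasted peaks covered almost without a break and fed peaks covered in many shorter pieces. Peaks covered 21473 and 12585 bp in fed 1 and fed 4, against 30677 and 30086 bp in fasted 2 and fasted 5. The fasted values lay within 591 bp of each other and above both fed values, which were far apart. The means were 17029.0 ± 6284.8 bp in fed and 30381.5 ± 417.9 bp in fasted crypts (SD, n = 2), a ratio of 1.78. Of all 55 kb windows with a peak in any library 79.7% had this order, and 94.8% of the 5509 with a peak in all 4 libraries.

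**Figure D2:**
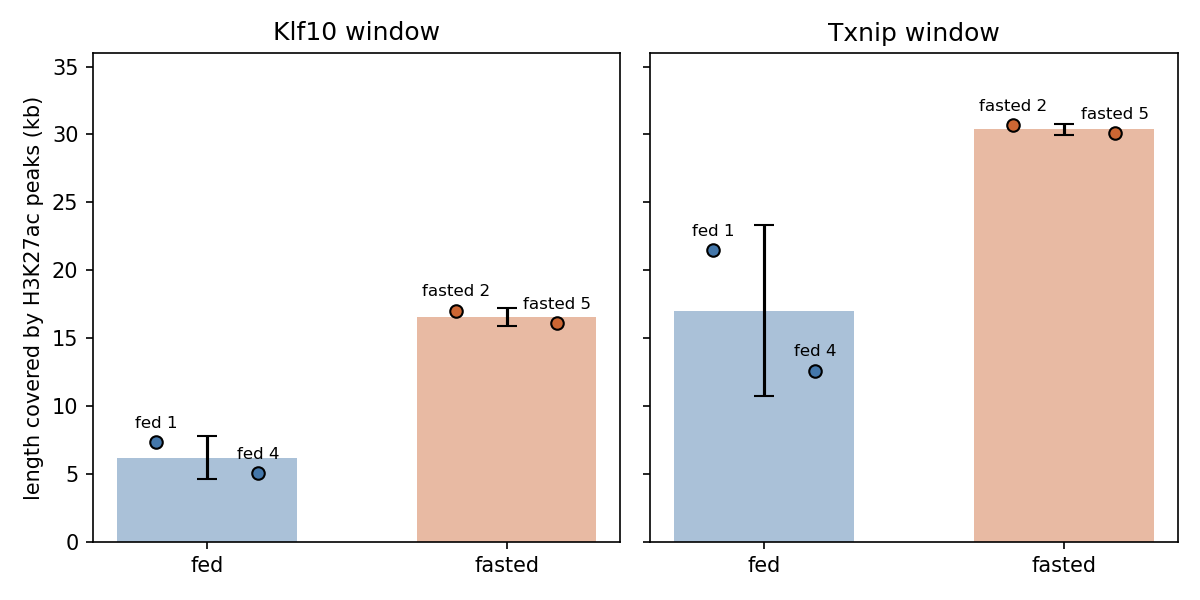
Length covered by H3K27ac peaks in the Klf10 and the Txnip window, in kb, with points for the libraries, bars for the mean of the 2 libraries of a group and error lines for ± 1 SD. In both windows the fasted points lie close together and above the fed points, which at Txnip stand 21473 bp against 12585 bp.

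Peak numbers at Txnip ran the other way from covered length. Fed 1 had 8 peaks and fed 4 had 9, while fasted 2 and fasted 5 had 3 each. More peaks in both fed than in both fasted libraries were found in 5.25% of the 55 kb windows with a peak in all 4. Windows as widely covered as that of Txnip were not counted apart. The mean width of a Txnip peak was 2684.1 and 1398.3 bp in fed 1 and fed 4, against 10225.7 and 10028.7 bp in fasted 2 and fasted 5. From the first to the last Txnip peak, fed 1 covered 79.6% of its span and fed 4 covered 48.4%. The fasted libraries covered 99.7% and 98.8% of theirs. The fed peaks at Txnip were thus fragments spread over nearly the same stretch, with spans of 26980 and 25981 bp against 30777 and 30459 bp.

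Merging split the Txnip stretch into 2 regions with a peak in all 4 libraries, from 96353858 to 96372348 (18491 bp) and from 96372387 to 96384893 (12507 bp). The 38 bp between them were under no peak in any library. Both fasted libraries broke at this point, by 48 bp (fasted 2) and 57 bp (fasted 5), and both fed libraries had wider breaks that include it, of 2026 bp (fed 1) and 853 bp (fed 4). A break between peaks at this place is therefore a feature of all 4 lists.

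In the first Txnip region, fed 1 and fed 4 peaks covered 12686 and 5368 bp, and fasted 2 and fasted 5 peaks 18170 and 18175 bp. Fed 1 ranked it at percentile 99.5, its 142nd highest score, through a peak of 5927 bp from 96358687 to 96364613. Fed 4 had 5 small peaks there, the highest at percentile 67.3. The fed libraries thus disagreed at this region in rank as well as in length. Fasted 2 had the region at percentile 97.7 with a peak of 15840 bp, and fasted 5 at the tied score with a peak of 17480 bp, the widest of the 34 peaks.

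In the second Txnip region, the fed libraries were more alike. Their peaks covered 8787 bp (fed 1) and 7217 bp (fed 4), against 12507 bp (fasted 2) and 11911 bp (fasted 5). Fed 1 reached percentile 97.7 with a peak at 96377021 to 96382088, and fed 4 reached 96.6 with a peak at 96372961 to 96375056. Fasted 2 stood at 98.7 and fasted 5 at the tied score. All 4 libraries thus placed this region in the top 5% of their lists.

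The highest percentile of the whole Txnip window was 99.5 and 96.6 in fed 1 and fed 4, and 98.7 and 99.6 in fasted 2 and fasted 5. The groups overlapped. The difference of the means was 1.1 points, 2.5 without fed 1, -0.3 without fed 4, 1.5 without fasted 2 and 0.7 without fasted 5. With the tie of fasted 5 taken at its lower edge the difference was -0.7. In rank within the lists the Txnip locus was thus high in both feeding states, with no steady direction.

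**Figure D3:**
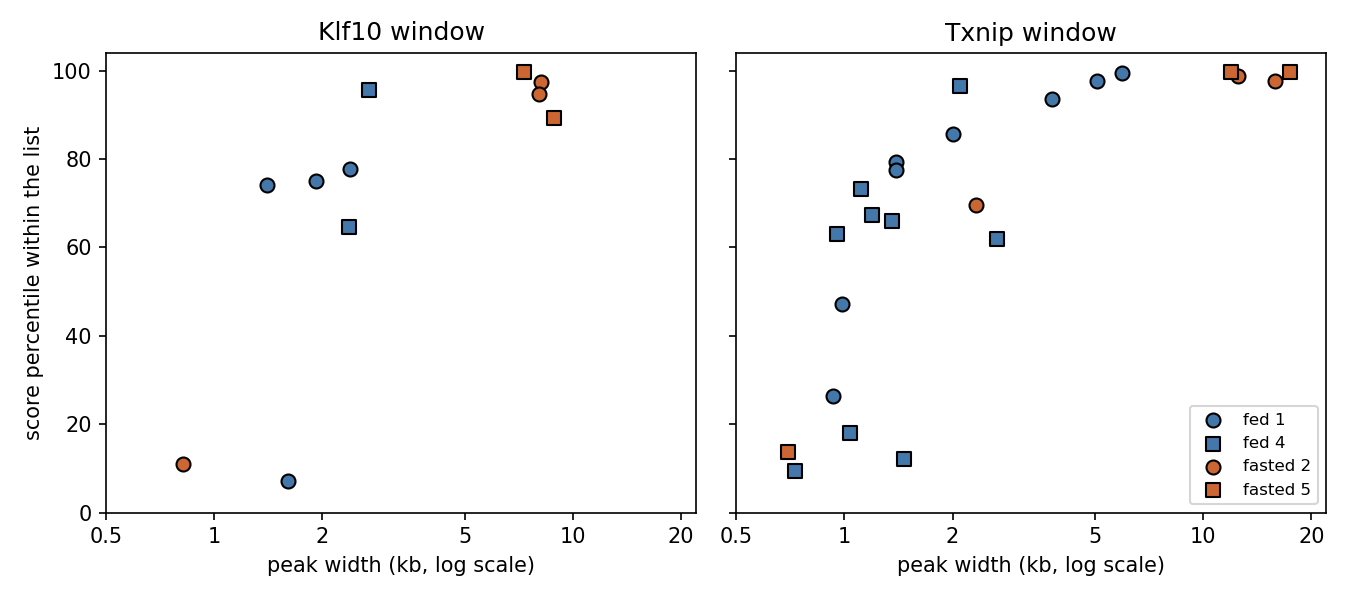
Width of each peak in kb (log scale) against its score percentile within its own list, for the 11 peaks of the Klf10 window and the 23 of the Txnip window; colour marks the feeding state and marker shape the library. At Txnip the 4 wide fasted peaks, of 11911 bp or more, lie beyond the widest fed peak of 5927 bp, while the percentiles of the top peaks overlap.

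The fasted libraries also had small peaks at the left end of the Txnip stretch that no fed peak touched. In fasted 2 this was a peak of 2330 bp at 96354117 to 96356446 (percentile 69.6). In fasted 5 a peak of 695 bp began at 96353858 (percentile 13.7), and the wide peak began at 96354869. The first fed peak began at 96356507 in fed 1 and at 96357608 in fed 4. Just outside the window, at 96395935 to 96398558, both fasted and neither fed library had a peak (percentiles 60.6 and 69.9), which the rule left out.

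Base by base, the called fed peaks at Txnip lay wholly inside the called fasted peaks. The fasted peaks covered 99.7% and 98.8% of spans that reached beyond both fed spans, so little room was left for another outcome. All of the bases under fed 1 peaks and all of those under fed 4 peaks were under a peak of fasted 2 and of fasted 5 (100.0% each). In the other direction, 70.0% of the fasted 2 and 71.4% of the fasted 5 bases were under fed 1 peaks, and 41.0% and 41.8% were under fed 4 peaks. All 4 libraries shared 10903 bp, and a further 6610 bp were under both fasted and no fed peaks.

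At Klf10 the nesting was less complete. Of the fed 1 bases 87.3% were under fasted 2 and 75.4% under fasted 5 peaks, and of the fed 4 bases 95.8% and 100.0%. All 4 libraries shared 3247 bp, while 8082 bp were under both fasted and no fed peaks and 927 bp under 1 fed and no fasted peak. For whole lists the share of fed bases under a fasted list ranged from 86.1% to 88.1%.

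Agreement within a feeding state was closer among the fasted libraries. The Jaccard index, the bases in both lists over those in either, was 0.849 for the fasted pair at Klf10 and 0.96 at Txnip, against 0.65 over whole lists. For the fed pair it was 0.355 at Klf10 and 0.471 at Txnip, against 0.254 over whole lists. The index of a fed with a fasted library was 0.282 to 0.356 at Klf10 and 0.41 to 0.714 at Txnip, against 0.173 to 0.396 over whole lists. At Txnip, fed 1 was thus closer to either fasted library (0.7 and 0.714) than to fed 4, and the low index of fed 4 goes with its shorter covered length. The same held over whole lists, where fed 1 had 0.396 with fasted 2 and 0.368 with fasted 5, so it is not particular to Txnip. Whole lists include peaks of 1 library alone (19.1% of merged regions for fasted 5, 13.9% for fasted 2). The indices of windows with like covered length were not computed.

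Both windows were compared with the rest of the genome cut into windows of the same length. The covered length of the Klf10 window stood at percentiles 84.5 and 90.9 in the fed and 88.1 and 86.5 in the fasted libraries, fed 1 and fasted 2 first, among 14298 windows with a peak in any library. In the same order the Txnip window stood at 97.9, 98.2, 96.8 and 96.9 among 13534. Txnip stood above Klf10 in every library. Windows without a peak in a library count as lower ones for that library, and the lists differ in length. The percentiles of fed and fasted libraries are therefore not on a like footing. By highest score, Klf10 stood at 73.1, 95.8, 92.8 and 98.9, and Txnip at 98.8, 96.5, 96.1 and 98.9, again with the fed libraries first.

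The ratio of fasted to fed covered length was near the middle of the genome for Klf10 and low for Txnip. Klf10, at 2.67, stood at percentile 53.9 of the windows with a peak in all 4 libraries, whose median was 2.57 and whose quartiles were 2.01 and 3.47. Txnip, at 1.78, stood at percentile 14.1, with a median of 2.62 and quartiles of 2.04 and 3.5. In proportion, the greater covered length in fasted crypts was thus close to the genome's median at Klf10 and below that of most acetylated windows at Txnip. The Txnip window was already among the most covered in the fed libraries, and windows of like fed covered length were not compared.

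**Figure D4:**
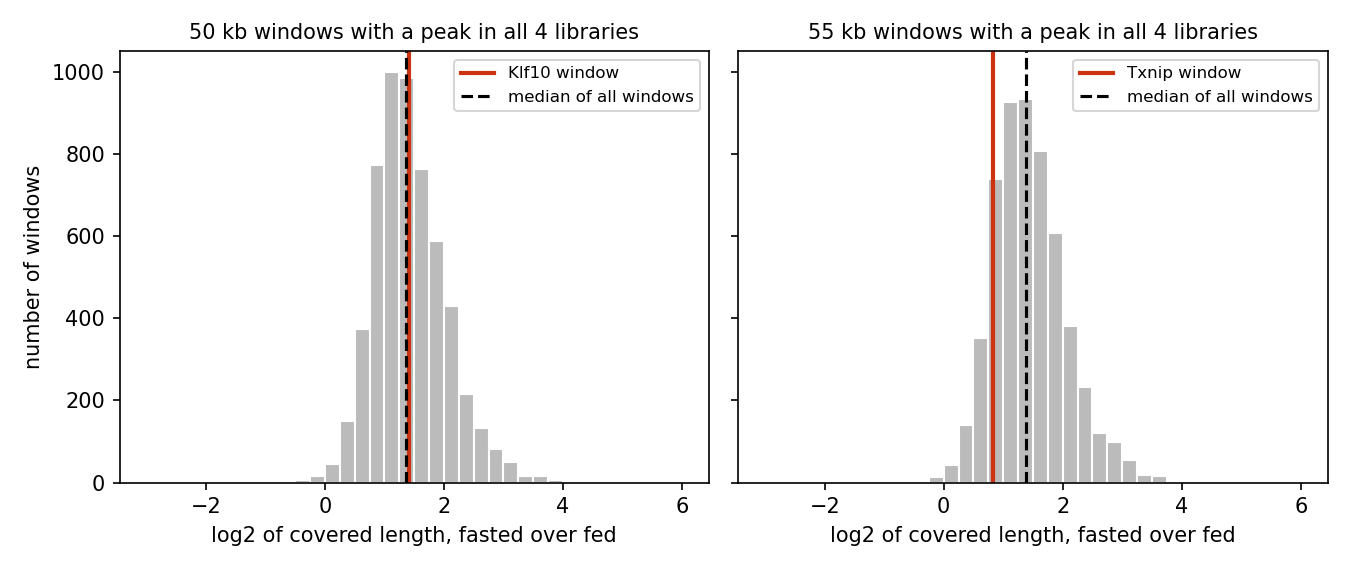
Number of genomic windows with a peak in all 4 libraries (y) by the log2 of mean covered length in fasted over fed libraries (x), for 50 kb windows with Klf10 marked and 55 kb windows with Txnip marked. The solid Klf10 line, at a ratio of 2.67, lies next to the dashed median of 2.57, and the Txnip line, at 1.78, lies to the left of its median of 2.62.

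Of the 5 merged regions in the windows, 3 had a peak in all 4 libraries, as did 16.1% of all merged regions, and these 3 were set beside the others of that kind. Fasted libraries covered 1.57 times as much as fed ones at the first Klf10 block, 2.01 times at the first Txnip region and 1.53 times at the second, against a median of 2.05 over 6931 regions. These stood at percentiles 19.5, 48.0 and 16.6. In all 3 each fasted library covered more than either fed library, as in 91.3% of such regions. More peaks in both fed than in both fasted libraries were also found in all 3, against 15.7% of such regions. The 3 were wider (9022, 18491 and 12507 bp) than the median of 6530 bp, and regions of like width were not counted apart. The covered length of fed 4 relative to fed 1 was 0.89 at the first Klf10 block, 0.42 at the first Txnip region and 0.82 at the second, with a median of 0.59.

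Since the lists differ in length, the loci were also read from lists made equal. With the 15504 top-scoring peaks of each library, Klf10 had 5717 and 5067 bp in the fed and 16192 and 16110 bp in the fasted libraries. Txnip had 20543 and 12585 bp against 30677 and 29391 bp. With top-scoring peaks of equal covered length (21.9 Mb), Klf10 had 2387 and 5067 bp against 16192 and 7285 bp, and Txnip 19561 and 12585 bp against 28347 and 29391 bp. Both fasted libraries lay above both fed in each case. With equal peak number the same order was found in 69.8% of 50 kb and 70.4% of 55 kb windows, and at equal covered length in 17% and 17.2%.

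The second Klf10 block kept both fasted peaks in all 4 alternative lists, the 2 equal lists and those with scores of at least 100 or 200. Each of these is a part of the deposited list, so none could add a fed peak. The first Klf10 block lost its fed peaks at scores from 200 upward. In the lists of equal covered length it lost the peak of fasted 5 and kept peaks of fed 1, fed 4 and fasted 2. The second Txnip region had peaks in all 4 libraries in each alternative list. The first Txnip region lost fed 4 at either score minimum. The loss of fed peaks at a fixed score goes with the lower scores of those lists, in which 640 peaks of fed 4 but 20009 of fasted 5 reach 200.

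With 2 libraries in each group no two-sided exact permutation test could go below p = 0.333, and none is reported. In the full lists, differences larger than the spread between libraries of a group were the covered length at both loci and the peak number at Txnip. For covered length at Klf10 this did not hold in lists of equal covered length. There the fasted libraries, at 16192 and 7285 bp, lay further apart than the group means, which differed by 8011.5 bp. The peak number at Txnip did not last under a score minimum. Among peaks scoring 100 or more the groups overlapped (fasted minus fed -1.0 peaks), and at 200 or more the difference turned to 0.5.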

How the data were processed

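H3K27ac was measured in 2 fed and 2 fasted crypt pools. The submitters' processing notes name build mm9 and the tools Bowtie 1.1.2, SAMtools 1.9, deepTools 1.5.11 and FastQC; the sources used here give no settings. Peak and file names point to MACS without a shifting model, run per library. The deposited files give each peak's position and the authors' score, whose scale is not stated. Replicates were not pooled into a list.

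The members, gene names and lists were chosen with earlier results of these data known. Python 3.11.15 and numpy 2.4.6 counted peaks that overlap each window, the union of their bases, and percentiles within a list. Peaks overlapping by 1 bp or more were merged into regions. The background tiles each chromosome from position 1 with windows as long as that of the gene. Coordinates count from 1. Named are both genes, all regions in their windows, RefSeq neighbours and, for each gene, the 3 windows whose covered lengths in the 4 libraries lie nearest by Euclidean distance. Other glucose-sensed genes, planned in case mm9 gene positions were at hand, were not analysed here. Interval code was tested on simulated data. Alternatives were score minimums, lists of equal number or covered length, wider and narrower windows, tie handling, a shifted grid and leaving out libraries. Depth is unknown, so no interval is given.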

Additional observations from a re-analysis of the deposited data

How the results depend on the processing

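Of 70 alternatives, 40 moved a difference by less than the spread between libraries or kept a share within its counting interval, 22 moved it further and 8 turned its direction. No paired analysis was possible because fed and fasted libraries share no replicate number. For covered length, fasted minus fed, the 10366.0 bp at Klf10 became 11945.0 bp at scores of 100 or more, 16151.0 bp at 200 or more, 8011.5 bp with equal covered length, 12025.0 bp in a window wider by 10000 bp on each side and 7433.5 bp in a narrower one. The 13352.5 bp at Txnip became 19205.5 and 21600.5 bp at the 2 score minimums. The direction of covered length held in all of these and without any one library (9239.0 to 11493.0 bp at Klf10, 8908.5 to 17796.5 bp at Txnip). The difference in peak number at Klf10, -0.5, turned to 2.0 at scores of 200 or more, 1.0 in the wider and 1.5 in the narrower window, and ran from -1.5 to 0.5 when a library was left out. At Txnip, -5.5 became -1.0 and 0.5 at the score minimums and -4.5 in the wider and in the narrower window, and ran from -6.0 to -5.0 with a library left out. The highest percentile at Klf10, 11.8 points apart, became 32.4 at the score minimum of 100 and 27.1 at equal covered length, where fed 1 stood at 10.4 and fed 4, at 95.7, lay above both fasted libraries; at scores of 200 or more and in the narrower window a fed library had no peak and no value was given. At Txnip, 1.1 points became 5.6 and 40.5 at the score minimums, -8.5 at equal covered length, -0.7 at the lower edge of ties, and -0.3 to 2.5 with a library left out. Both fasted lay above both fed in 79.1% (50 kb) and 79.7% (55 kb) of windows with a peak in any library. Counted the same way, this share became 69.8% and 70.4% at equal peak number and 17% and 17.2% at equal covered length. In the full lists it was 94.5% and 94.8% among windows with a peak in all 4 libraries. For the equal lists the share among such windows was not counted. A score of 200 or more leaves 640 of 15504 peaks in fed 4 and 20009 of 35917 in fasted 5; the cause of these shifts was not tested. The unknown depth limits what the missing fed peaks at the second Klf10 block can show.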

Other observations

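The windows whose covered lengths were nearest to those of each gene over the 4 libraries are named by position, since no mm9 gene models were used. For Klf10 the nearest of 14298 windows was chromosome 3 from 27150001 to 27200000, with 7534 and 5100 bp in fed 1 and fed 4 and 17011 and 15557 bp in fasted 2 and fasted 5, at a distance of 594 bp. The next were chromosome 1 from 93950001 to 94000000 (distance 1167 bp) and chromosome 5 from 101250001 to 101300000 (1254 bp). For Txnip the nearest of 13534 windows was chromosome 12 from 112200001 to 112255000, with 21811 and 12088 bp in fed 1 and fed 4 and 31918 and 30380 bp in fasted 2 and fasted 5, at a distance of 1410 bp. The next were chromosome 4 from 106425001 to 106480000 (1463 bp) and chromosome 2 from 71610001 to 71665000 (1838 bp). Windows with such a pattern of covered length thus occur elsewhere in the genome for both genes.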
